A study of Rattus norvegicus with 2 samples.

Results

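The genes described here are 10 markers of endoplasmic reticulum (ER) stress and of the amino acid response: Atf4, Ddit3, Trib3, Chac1, Asns, Sesn2, Hspa5, Herpud1, Dnajb9 and Xbp1. They were chosen by name, as all probes other than controls that carry one of these gene names, and they make up 10 of the 36174 gene names on the array. RNA from the cervical lymph nodes of male Sprague-Dawley rats, 10 to 12 weeks old, was measured on 2 Agilent arrays: 1 of the control (C) group, which was not restrained, and 1 of the restraint stress (RS) group, which was tied to a wooden board on its back. The labels give no restraint time, and the study's microarray results compare its group of 30 min of restraint with the C group. Rats of both groups received halothane and then an overdose of sodium pentobarbital before the nodes were removed, and neither the labels nor the methods say if the hybridized RNA was that of a single rat or a pool. With 1 array per group, a difference has no replicate check and no p-value was computed.

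Unfolded proteins in the ER are sensed by the membrane proteins PERK, IRE1 and ATF6, which start the unfolded protein response. IRE1 splices the Xbp1 mRNA, ATF6 is cut to a transcription factor, and PERK phosphorylates the translation factor eIF2 alpha, as GCN2 does when amino acids are scarce. Phosphorylation of eIF2 alpha lowers general translation while the Atf4 mRNA is translated more, and the ATF4 protein then drives genes of amino acid synthesis and uptake. In lymph nodes this machinery is best known from plasma cells, which secrete antibodies and depend on XBP1. An array reads mRNA levels only, so that splicing of Xbp1, translation of Atf4 and phosphorylation of eIF2 alpha were not measured.

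Each member was represented by 1 probe of 60 bases. The probes of Atf4 and Asns are shown because these genes have the most spots behind their differences among the amino acid response genes, and that of Sesn2 because the files give no position for it. The files place the Atf4 probe at chr7:118538840-118538899 on the forward strand and the Asns probe at chr4:32759136-32759195 on the reverse strand, and their header names the build rn4. The other probes lie at chr7:67252505-67252564 (Ddit3, forward strand), chr3:13787739-13787798 (Hspa5, forward), chr3:105872719-105872778 (Chac1, forward), chr14:86156913-86156972 (Xbp1, forward), chr6:63583604-63583663 (Dnajb9, reverse), chr19:11036709-11036768 (Herpud1, reverse) and chr3:142664936-142664995 (Trib3, reverse). In lower case, with no part marked, the probes of Atf4, Asns and Sesn2 read:
Atf4 probe: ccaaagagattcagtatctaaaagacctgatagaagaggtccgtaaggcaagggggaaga
Asns probe: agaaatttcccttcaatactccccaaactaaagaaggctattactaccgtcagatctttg
Sesn2 probe: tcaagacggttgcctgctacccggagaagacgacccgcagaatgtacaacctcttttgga

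Response elements were looked for in the RefSeq promoter windows of the GRCr8 assembly, which run from 250 bases before to 50 bases after a start site, and all 10 members had a window. The ER stress response element (ERSE: CCAAT, then 9 bases of any kind, then CCACG), through which ATF6 and XBP1 are known to act, was found on either strand in 22 of 33469 windows (0.0657%), among them those of Hspa5 and Xbp1. The related ERSE-II (ATTGG, 1 base of any kind, CCACG) was found in 17 windows (0.0508%), including that of Herpud1. The composite site of C/EBP and ATF factors (TGATGNAAN), the element read by ATF4 with its partners, was found in 1328 windows (3.97%), including those of Chac1, Herpud1 and Trib3. The core of the unfolded protein response element (TGACGTGG) was found in 199 windows (0.595%), and in the window of no member. A match is a match of letters and was not measured as a binding site. The 5 matching windows are shown with 12 flanking bases on each side and the matches in capitals, read 5′ to 3′ along the gene. A composite site in capitals is on the opposite strand, so that its letters appear as the reverse complement. The Hspa5 stretch lies at chr3:38452961-38453003 (forward strand), that of Xbp1 at chr14:84604546-84604588 (forward), that of Herpud1 at chr19:10614809-10614904 (reverse), that of Chac1 at chr3:126795951-126795983 (forward), and that of Trib3 at chr3:161275535-161275567 (reverse).
Hspa5 ERSE: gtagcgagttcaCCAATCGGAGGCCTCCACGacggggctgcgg
Xbp1 ERSE: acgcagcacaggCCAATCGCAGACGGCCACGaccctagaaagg
Herpud1 composite site and ERSE-II: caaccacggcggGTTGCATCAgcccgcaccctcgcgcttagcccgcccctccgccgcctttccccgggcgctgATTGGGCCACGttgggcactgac
Chac1 composite site: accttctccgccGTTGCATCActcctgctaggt
Trib3 composite site: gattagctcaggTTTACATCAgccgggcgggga

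Each of the 10 genes differed by less than 2-fold between the 2 arrays. All 10 probes were well above background on both arrays, and none of their 29 spots per array was saturated or marked as an outlier. Levels are log2 intensities from which the 75th percentile over the probes of that array was subtracted, a difference is RS minus C, and its spot error combines the errors that the scanner software reports for the spots, without any spread between rats. Of the members, 7 were higher and 3 were lower on the RS array, with differences from -0.57 to 0.51 and a median of 0.16, compared with a median of 0.02 and 52.1% higher over the screened genes, those well above background on at least 1 array. By 2-fold or more, 0 members were higher, beside 3.46% of the 21096 screened genes, and 0 were lower, beside 4.28%. Counts of 0 in 10 genes are near these shares. The 25th and 75th percentiles of the differences over the screened genes were -0.20 and 0.21. Of the members, only Herpud1, Chac1 and Dnajb9 lay between them. Of the 19214 genes measured on both arrays, as all members were, 493 were higher and 601 lower by 2-fold or more. At 1.5-fold in either direction the count of members was also 0, beside 16.4% of the screened genes, with Asns just inside at 1.49-fold. Asns passed 1.5-fold under 2 of 10 other settings, at -0.59 with the percentile taken over the probes that both arrays measured and at -0.67 without normalization. The difference exceeded the 95% limits of the spot error in 4 members: Atf4, Ddit3 and Hspa5 were higher, beside 11.1% of the 19214 genes measured on both arrays, and Asns was lower, beside 10.1%. The other 6 members lay within these limits. The limits are unlike between genes, since Atf4 and Hspa5 have 10 spots and errors of 0.065, beside a median error of 0.205 over the 19214 genes. Judged by the error of 1 spot, 3 members were again higher and 1 lower. Of the members, 5 were in the brightest quartile of the screened genes, in which 3.77% differed by 2-fold or more, and none was in the dimmest. In whole nodes, fewer cells of a type and less RNA per cell cannot be told apart.

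**Figure D1:**
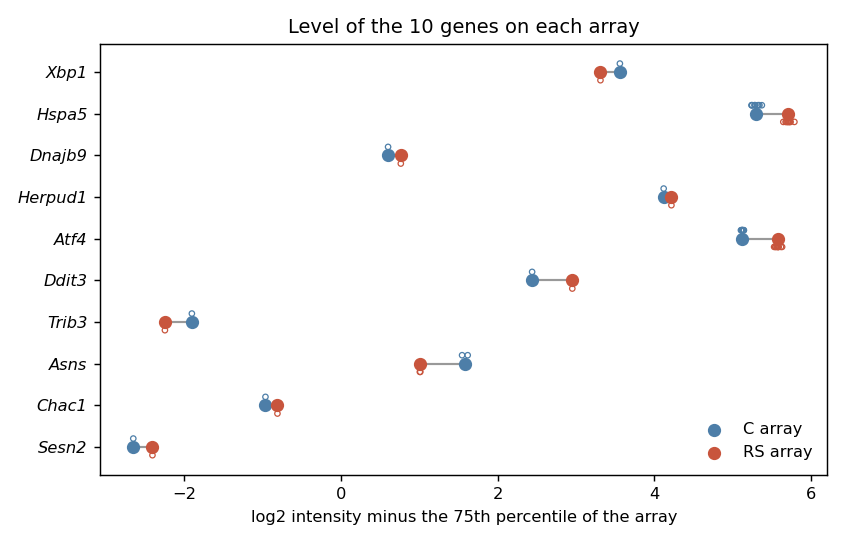
Level of the 10 genes on the C array (blue) and the RS array (red), as log2 intensities after subtraction of that array's 75th percentile; large points are the mean over spots and open circles the single spots. The large points of each gene are less than 2-fold apart, and levels are comparable along a row but not between genes, since probes differ in brightness. The spots of Atf4, Hspa5 and Asns do not overlap between the arrays.

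Among the ER genes, Hspa5 was 1.33-fold higher on the RS array. Hspa5 encodes BiP, the main chaperone of the ER and the protein that holds the sensors inactive. Its 10 spots read intensities from 7168 to 7849 on the C array, with a mean of 7438, and from 8865 to 9780 on the RS array, with a mean of 9270. The difference came to 0.42 on the log2 scale (spot error 0.065).

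Xbp1, the transcription factor downstream of IRE1, read lower on the RS array, and its window holds the same kind of element as that of Hspa5. Its single spot read 2233 on the C array and 1756 on the RS array, a difference of -0.25 on the log2 scale (spot error 0.20). The lower reading is within the 95% limits of that error. The files list 2 RefSeq mRNAs for this probe, so that its value covers both.

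The other ER members differed little. Herpud1, a membrane protein of ER-associated degradation, read 3291 on both arrays, which became a log2 difference of 0.10 (spot error 0.20) through the scaling alone. Dnajb9, a co-chaperone of BiP, read 287 on the C array and 300 on the RS array, a log2 difference of 0.16 (spot error 0.20). Both differences lie within the spot error.

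Among the genes of the ATF4 branch, the transcription factors were higher. Atf4 read 6521 to 6695 over 10 spots on the C array, with a mean of 6606, and 8173 to 8772 on the RS array, with a mean of 8442. Atf4 was thus 1.37-fold higher (log2 difference 0.45, spot error 0.065). Ddit3 encodes CHOP, a transcription factor induced by ATF4 that is known for its part in cell death under prolonged stress. Its single spot read 1026 on the C array and 1368 on the RS array, which was 1.43-fold higher (log2 difference 0.51, spot error 0.20). This was the largest difference among the 10 genes in the upward direction.

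The targets of ATF4 did not share one direction. Asns, the enzyme that makes asparagine, read 552 and 580 in its 2 spots on the C array and 355 and 356 on the RS array. The gene was 1.49-fold lower on the RS array (log2 difference -0.57, spot error 0.14). Trib3, a pseudokinase that restrains ATF4 and CHOP, read 50.4 on the C array and 37.1 on the RS array, a log2 difference of -0.34 (spot error 0.22). With the normexp background correction, which adds an offset of 50 to the intensities, the difference of Trib3 was -0.14, less than its spot error. The offset is about as large as the readings of Trib3, so that it draws this difference toward 0 by itself. Chac1, which degrades glutathione, read 96.8 and 101, a log2 difference of 0.15 (spot error 0.21). Sesn2, a leucine sensor that restrains mTORC1, read 30.02 on the C array and 33.2 on the RS array, a log2 difference of 0.24 (spot error 0.24). Of these targets, Asns alone differed by more than the 95% limits of its spot error.

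**Figure D2:**
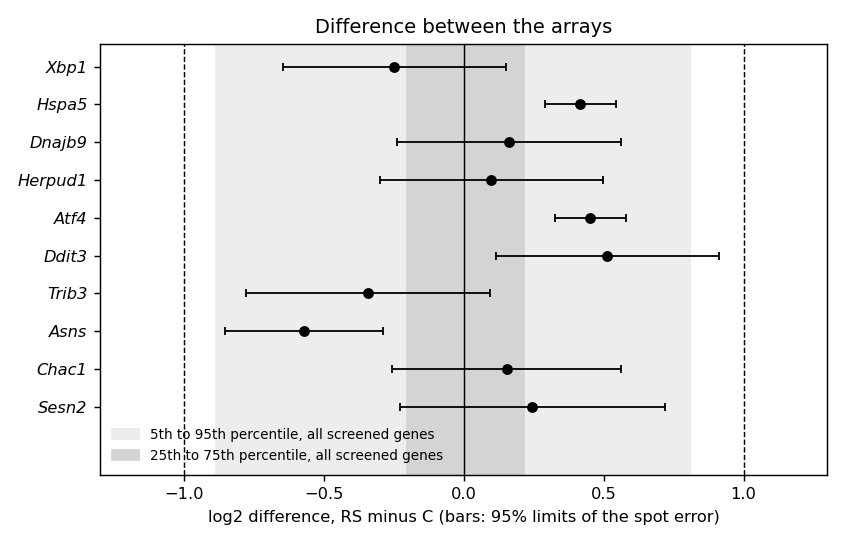
Difference of each gene between the arrays (points, log2, RS minus C), with bars for the 95% limits of the spot error, the 2-fold lines (dashed), and the 25th to 75th and 5th to 95th percentiles of the screened genes (dark and light gray). Atf4, Ddit3 and Hspa5 lie above 0 and Asns below 0 by more than their bars, and all 10 lie inside the light band, which runs from -0.88 to 0.81. Only Herpud1, Chac1 and Dnajb9 lie inside the dark band, which runs from -0.20 to 0.21.

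The members that carry an element in their promoter window differed in sign. The pair with an ERSE had log2 differences of 0.42 (Hspa5) and -0.25 (Xbp1). The members with a composite site had 0.15 (Chac1), 0.10 (Herpud1, which also holds the ERSE-II) and -0.34 (Trib3). Atf4, Ddit3, Asns, Dnajb9 and Sesn2 had no match in their windows. The search read exact letters from 250 bases before to 50 bases after a start site. A missing match therefore does not show that a gene lacks the element. Whether the elements bear on these differences was not tested.

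Scaling moved the differences but changed the sign of none. Median scaling, the percentile over probes that both arrays measured, and no normalization each move every gene by the same amount. The ranges of the members are therefore not separate checks. Under the 10 alternatives that give a value for each gene, the difference of Asns ranged from -0.67 to -0.53, that of Ddit3 from 0.41 to 0.54, that of Atf4 from 0.35 to 0.48 and that of Hspa5 from 0.32 to 0.44. Herpud1 ranged from 0.00035 to 0.12. In each alternative 0 members passed 2-fold in either direction. The alternatives for probe choice and background filter could not move a member, since each has 1 probe, well above background on both arrays.

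**Figure D3:**
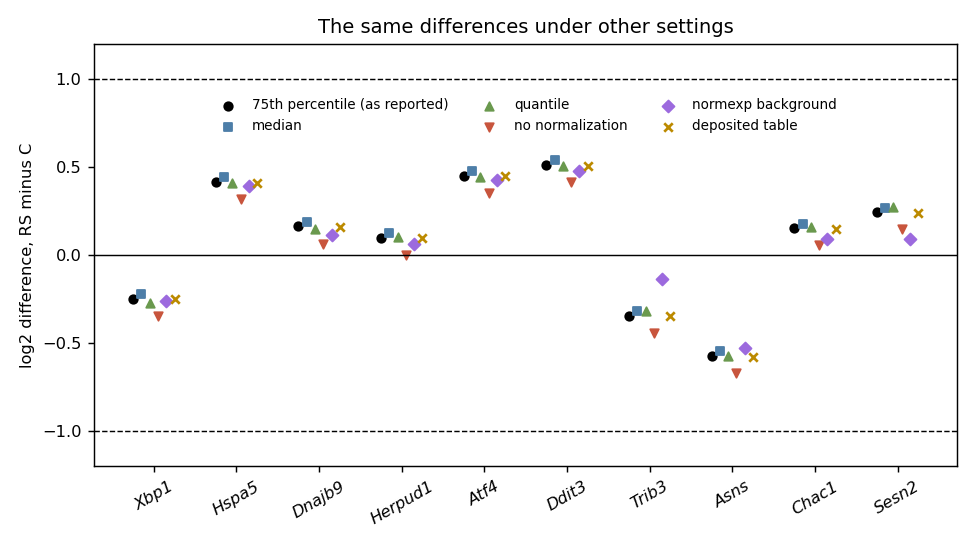
The log2 difference of each gene (RS minus C) under the scaling used here and 5 other settings; dashed lines mark 2-fold. Each gene keeps its side of 0 in all 6, Herpud1 comes to 0.00035 without normalization, and Trib3 is nearest to 0 with normexp. The offset of 50 in normexp draws the differences of dim genes toward 0.

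Around these genes, 7 lists of the same pathways were examined, with 105 of 115 genes above background. Of these, 67 were higher and 38 were lower, with a median log2 difference of 0.06. Of the 104 measured on both arrays, 101 lay within 2-fold, and the remaining value, that of Cbs, is a lower bound. The 3 that passed 2-fold were Atf3 and Cebpb, which were higher, beside 3.46% of the screened genes, and Slc7a11, which was lower, beside 4.28%. The lists are described by counts and medians, since no test was possible.

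Of the sensors and regulators of the unfolded protein response, 9 of 11 were above background, 5 higher and 4 lower, with a median of 0.07 that fell below 0 under 2 of 10 alternatives. Eif2ak3, which encodes PERK, had a difference of -0.02, Ern1, which encodes IRE1, 0.17, and Atf6 0.18. A second, dimmer probe gave 0.27 for Eif2ak3, with the other sign, and 0.34 for Atf6. The extremes were Mbtps2, a protease that cuts ATF6, at 0.43, with a spot error of 0.39, and Tmbim6, an inhibitor of IRE1, at -0.28. Mbtps1, the other protease of ATF6, had a difference of 0.07, and its probes ranged down to -0.02.

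All 22 ER chaperones and folding enzymes were above background, 12 higher and 10 lower, and their median of 0.01 changed sign under 5 of 10 alternatives. Ero1b, an oxidase that serves disulfide bond formation, was highest at 0.54, from 1489 on the C array to 2028 on the RS array. Its second, dimmer probe gave 0.20. Sdf2l1, a co-chaperone of BiP, was lowest at -0.35, from 5462 to 4017. Hsp90b1, the chaperone GRP94, had a difference of -0.26, P4hb and Pdia4, protein disulfide isomerases, 0.33 each, and Fkbp2, a prolyl isomerase, -0.05.

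In ER-associated degradation, 18 of 19 genes had a value, 13 higher and 5 lower, with a median of 0.09 that fell below 0 under 1 alternative. Herpud2, the paralog of Herpud1, was highest at 0.34, and Edem2, which trims mannose from misfolded glycoproteins, was lowest at -0.40. Selenok, listed as Selk in the files, had 0.19 and the ubiquitin-conjugating enzyme Ube2j1 0.09. None reached 2-fold.

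Of the eIF2 kinases, phosphatases and subunits, 14 of 15 had a value, 9 higher and 5 lower, with a median of 0.04 that fell below 0 under 1 alternative. The highest was Ppp1r15a, which encodes GADD34, the phosphatase subunit that reverses the phosphorylation of eIF2 alpha. It read 1080 on the C array and 1598 on the RS array, which was 1.58-fold higher (log2 difference 0.66, spot error 0.20). Eif2s2 had a difference of 0.37 and Gcn1, an activator of GCN2, 0.01. Eif2ak2, the kinase PKR, was lowest at -0.24.

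The list of ATF4 partners and other ATF4 targets held the largest differences. Atf3, a transcription factor of the same family and an early response gene of many stimuli, read 59.5 on the C array and 584 on the RS array. It was 10.5-fold higher (log2 difference 3.39, spot error 0.15). Cebpb, a partner of ATF4 that also acts in acute inflammation, read 438 and 1849 and was 4.52-fold higher (log2 difference 2.18, spot error 0.065). Ddit4, an inhibitor of mTORC1 that glucocorticoids also induce, read 4252 and 6758, a log2 difference of 0.77.

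Of the 24 genes of that list, 18 were measured on both arrays, and 16 of these differed by less than 2-fold. Cbs, an enzyme of cysteine synthesis, was above background on the RS array only and has a lower bound of 0.37, which sets no upper limit. Over the 19 values, the bound included, 14 were higher and 5 lower, with a median of 0.13. Phgdh, the first enzyme of serine synthesis, had a difference of 0.13, and Pycr1, an enzyme of proline synthesis, was lowest at -0.46. Gdf15, Stc2, Fgf21, Gpt2 and Cth were not well above background on any array.

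Of the amino acid transporters, 10 of 11 were above background, 8 higher and 2 lower, with a median of 0.16. Slc7a11, the cystine and glutamate exchanger, read 229 on the C array and 89.0 on the RS array, which was 2.41-fold lower (log2 difference -1.27, spot error 0.21). This value rests on 1 spot, and the second probe of the gene was not measured on both arrays. Slc6a9, a glycine transporter, was highest at 0.82, from 11.1 to 18.2 close to background, with a spot error of 0.35. Slc38a2, the amino acid transporter SNAT2, had a difference of 0.61, from 731 to 1043, and Slc1a5, a glutamine carrier, 0.45.

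The last list held 12 aminoacyl-tRNA synthetases, which charge transfer RNAs with amino acids, and Xpot, the exportin of transfer RNAs. Of the synthetases, 6 were higher and 6 lower, with a median of -0.02, and Xpot had a difference of -0.04, which was also the median of all 13 genes. Eprs1 was highest at 0.22 and Vars1 lowest at -0.46, from 37.7 to 25.6. Gars1 had 0.20 and Wars1 -0.16. A second, dimmer probe gave -0.17 for Gars1, with the other sign, and -0.36 for Wars1. In the files these synthetases carry the older names Eprs, Vars, Gars and Wars.

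**Figure D4:**
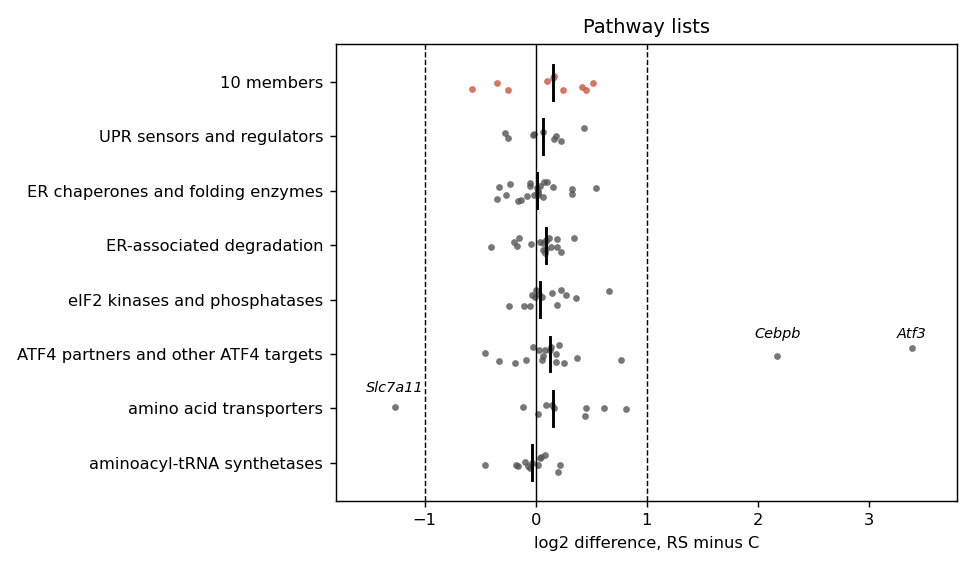
Log2 difference (RS minus C) of the 10 genes (red) and of the genes of 7 pathway lists (gray); vertical bars are medians, dashed lines mark 2-fold, and the vertical scatter within a row has no meaning. Atf3, Cebpb and Slc7a11 lie beyond 2-fold, and every median lies between -0.04 and 0.16.

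Markers of other cells were set beside these genes. The label of the tissue was borne out for lymphocytes, since Cd79b and Ms4a1 of B cells and Cd3e, Cd3d and Cd3g of T cells were well above background on both arrays. Cd79b and Ms4a1 had differences of -0.05 and 0.10, and all 4 T cell markers were lower. Cd3e, Cd3d and Cd3g had -0.16, -0.15 and -0.14, and Cd5 stood apart at -0.97, from 471 on the C array to 225 on the RS array. Of the 8 plasma cell markers, 3 were higher and 5 lower, with a median of -0.22. Jchain, the joining chain of antibodies, had a difference of -0.20, Mzb1, a chaperone of antibody chains, -0.24, and Sdc1 -0.31. In the other direction, the regulators of transcription Prdm1, Pou2af1 and Irf4 had differences of 0.72, 0.39 and 0.11. Summed over the list, the intensity read 86592 (C) and 77013 (RS) before scaling, of which Jchain supplied 60620 and 49457. Divided by the 75th percentile of each array, the sums were 459 and 437, a difference of -4.78% in place of -11.1%. The part of plasma cells in the values of Xbp1 and the other ER genes was not tested.

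The erythrocyte, neutrophil and fat cell markers differed far more than the 10 genes. All 4 erythrocyte markers were higher, with a median of 2.58 and summed intensities before scaling of 9744 (C) and 54549 (RS). Alas2, Ahsp and Hba1 had differences of 2.86, 1.42 and 2.60. S100a8 and S100a9 had 3.99 and 3.78, while Mpo and Ngp, the other neutrophil markers, were at background on both arrays, not well above it. Adipoq, Lep and Cfd were higher by 2.74, 3.24 and 1.08, and Plin1, the remaining fat cell marker, was not well above background. Of the 4 macrophage markers, Cd68 had -0.27, Csf1r -0.34 and Cd163 0.44. None of the salivary gland markers on the array, Amy1a, Aqp5 and Prol1, was above background. The part of these cells in the values of Atf3, Cebpb and the 10 genes was not tested.

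Stretches in which A and G alternate for at least 6 bases occurred in the probes of 45.2% of the genes at least 2-fold lower, compared with 4.80% of the screened genes. None of the 10 member probes held such a stretch, nor did the probes of Atf3, Cebpb and Slc7a11. The share of 4.28% of screened genes at least 2-fold lower includes probes with such stretches, so that it is not a like rate for these probes.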

How the data were processed

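The authors labeled total RNA with Cy3, hybridized it to 2 SurePrint G3 Rat arrays on 1 slide, and extracted the spots with Agilent Feature Extraction 11.5.1.1. They deposited spot intensity values, background-subtracted within each array and not normalized between arrays, with flags for outliers and for signal well above background. A table of log2 values per probe was deposited as well. Its scale is not stated, and 100% of its 91196 values lay within 0.1 of the log2 intensity minus the 75th percentile computed here.

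From the deposited intensities, outlier spots (489 on the C array, 660 on the RS array) were left out, log2 intensities were averaged per probe (45598 probes), and the 75th percentile, at intensities of 189 (C) and 176 (RS), was subtracted, as in the study. A probe counted as well above background when more than 50% of its spots were so marked (54.7% and 54.9% of probes). A gene took its probe with the highest mean signal. Where a probe was above background on 1 array only, the difference is a lower bound against the higher of its own dim signal and an intensity of 9.45 (C) or 8.52 (RS). The threshold of 2-fold is that of the study. The number of arrays limits the precision.

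Members and lists were chosen with earlier results of these data known. Beside the members, the text names in each pathway list the genes past 2-fold, the extremes and the 2 genes of highest signal, and in each cell type list the first markers; Eif2ak3, Ern1, Atf6, Hsp90b1, P4hb, Pdia4, Gdf15, Stc2, Fgf21, Gpt2, Cth, Cbs, Xpot, Prdm1, Pou2af1, Irf4, Cd5, Ngp and Cfd were added after their values were seen. Some markers are not reported here. Names follow the array design. In all, 11 other settings chosen at the outset and 3 added ones were run. Steps were tested on simulated data. Promoter sequences are from RefSeq (GRCr8). Python 3.11.15, numpy 2.4.6, pandas 2.3.3, matplotlib 3.10.9, R 4.3.3 and limma 3.58.1 were used.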

Additional observations from a re-analysis of the deposited data

How the results depend on the processing

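The counts of members past 2-fold were 0 in both directions under all 11 other settings. At 1.5-fold, a threshold added later with the values known, the count was 0 with the scaling used here and 1 (Asns) under 2 of 10 other settings, at -0.59 and -0.67. Of 204 values under the alternatives, 202 stayed within 1 spot error or at an equal count. This tally includes settings that could not move a member, since each has 1 probe, well above background on both arrays. These settings were the mean over probes and the other filters on background. Requiring the limits of the spot error as well could not raise a count of 0. List medians were judged against a spot error the size of a single gene's, so that a median near 0 could change sign and still count. Without normalization between the arrays, Atf4 had a log2 difference of 0.35 and Hspa5 of 0.32, each more than 1 spot error below the value reported. Every gene moved by the same amount in that setting. These 2 genes stood out because their 10 spots give them a smaller spot error. No difference of a member changed sign, and the median of the 10 ranged from 0.06 to 0.18. List medians near 0 did change sign, that of the chaperones under 5 alternatives, that of the sensors under 2, and those of ER-associated degradation and of the eIF2 genes under 1 each. Leaving out the scaling moved the median of all screened genes from 0.02 to -0.08, and the share of higher genes among those past 2-fold from 44.7% to 38.04%; with normexp it was 38.2%. The counts of all screened genes past 2-fold, 730 higher and 903 lower, became 234 and 378 with normexp. Its offset of 50 draws the differences of dim genes toward 0, which by itself lowers these counts. They were 1032 and 1171 with the mean over probes, and 2031 and 2148 without a filter. With genes above background on both arrays only they were 493 and 601. The mean over probes used no lower bound for probes above background on 1 array only. Its counts are therefore not like for like with 730 and 903. No paired analysis was possible because a group holds a single array. Spot errors hold no spread between rats, and 7 of the 10 genes rest on 1 spot per array.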
